A study of Homo sapiens and Mus musculus with 18 samples.

Results

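Transforming growth factor beta (TGF-beta) signalling was followed through 9 genes, taken by name from the 34505 gene rows of the human data. They are the ligands TGFB1 and TGFB2, the receptors TGFBR1 and TGFBR2, the signal transducers SMAD2, SMAD3 and SMAD4, the inhibitor SMAD7 and the target TGFBI. Bulk RNA was sequenced from 2 human pancreatic cancer lines with high or low keratin 17 (K17), which KRT17 encodes and which forms intermediate filaments. L3.6 is labelled as an adenosquamous carcinoma of the pancreas and PANC-1 as a pancreatic ductal adenocarcinoma. The 12 human libraries formed 4 groups of 3. L3.6 cells were wild type for K17 or carried a knockout of K17 made with CRISPR-Cas9, and PANC-1 cells carried an empty vector or over-expressed K17. All groups were grown in DMEM with fetal bovine serum and antibiotics, and no group was labelled as treated with TGF-beta. The labels do not say whether the knockout was 1 clone or a pool, which vector drove K17, or whether replicates came from separate cultures.

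TGF-beta is secreted in a latent complex and, once released, binds a complex of the type II receptor TGFBR2 and the type I receptor TGFBR1. The type I receptor phosphorylates SMAD2 and SMAD3, which join SMAD4, enter the nucleus and change transcription, and SMAD7 blocks the receptor in a negative feedback. In pancreatic cancer the pathway can restrain growth of epithelial cells and can promote mesenchymal traits, and SMAD4 is often lost.

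KRT17 followed the labels. Its counts were 202, 204 and 175 in the L3.6 knockout libraries and 1654, 1112 and 1420 in the wild type libraries, so that the transcript was lower in the knockout but present. In PANC-1 the counts were 2, 0 and 0 with the empty vector and 8597, 9884 and 9228 with K17. Total counts ran from 9485257 to 15476629 in L3.6 and from 59671178 to 70789559 in PANC-1. PANC-1 empty vector replicate 2 stood apart, with 18.8% of its counts in genes of mitochondrial DNA against 9.88% to 10.8% in the other 5 PANC-1 libraries and a score of 135.1 on the first principal component, where the others scored -31.6 to -22.0. Wild type replicate 1 of L3.6 lay between the groups on that axis (7.44, against 40.1 and 41.3 in the other wild type libraries and -40.6 to -18.6 in the knockout). The 5 epithelial markers had counts in both lines. They summed to 3681 to 4009 CPM (counts per 1000000 counts of a library) in the L3.6 knockout, 3138 to 3512 in the wild type, 927 to 1741 with the PANC-1 empty vector and 1005 to 1055 with K17. The sums of the L3.6 groups did not overlap. KRT19, a keratin of ductal epithelium and the 1 of the 5 that passed in L3.6, fell by 0.30 on the log2 scale with K17 there (edgeR adjusted p = 0.0212). The CDH1 row held few counts, at 8 to 41 per L3.6 library and 8 to 55 per PANC-1 library. A row need not hold all reads of its gene, so these counts do not show that CDH1 transcript is scarce. The part of these markers in the results was not tested.

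All 9 genes had promoters in the RefSeq table of build GRCh38.p14, in 24 windows that run from 250 bases before to 50 bases after a start site. Windows are shown for TGFBR2, which has the largest called change in L3.6, for TGFBI, which has the largest change in PANC-1, and for TGFB2, the ligand that differs more between the lines. Capitals mark matches to the SMAD element CAGAC (or GTCTG on the other strand) or to the AP-1 element TGANTCA. The TGFBR2 window is chr3:30606351-30606650, plus strand.
TGFBR2: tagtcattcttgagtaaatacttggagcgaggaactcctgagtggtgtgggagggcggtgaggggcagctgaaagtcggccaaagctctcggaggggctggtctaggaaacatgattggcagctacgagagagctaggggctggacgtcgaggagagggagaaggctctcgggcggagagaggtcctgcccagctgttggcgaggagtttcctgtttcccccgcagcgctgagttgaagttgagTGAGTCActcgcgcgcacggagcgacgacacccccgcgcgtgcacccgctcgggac
The TGFBI window is chr5:136028738-136029037, plus strand.
TGFBI: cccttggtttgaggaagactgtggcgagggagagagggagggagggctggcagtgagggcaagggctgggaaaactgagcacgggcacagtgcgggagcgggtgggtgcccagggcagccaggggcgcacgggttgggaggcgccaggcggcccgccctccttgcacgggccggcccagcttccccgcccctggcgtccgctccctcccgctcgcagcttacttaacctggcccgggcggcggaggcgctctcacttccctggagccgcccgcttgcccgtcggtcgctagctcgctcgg
The TGFB2 window is chr1:218345086-218345385, plus strand. It follows the RefSeq start site and ends before base 218346235, where the gene starts in GENCODE 29.
TGFB2: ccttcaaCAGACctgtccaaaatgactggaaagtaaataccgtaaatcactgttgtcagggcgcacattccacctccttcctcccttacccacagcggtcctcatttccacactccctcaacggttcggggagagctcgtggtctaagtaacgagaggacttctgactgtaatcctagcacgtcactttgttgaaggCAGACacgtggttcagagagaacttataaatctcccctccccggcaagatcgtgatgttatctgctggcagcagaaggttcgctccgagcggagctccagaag
The TGFBR2 window shown held 1 TGANTCA match and no CAGAC match, the TGFB2 window held 2 CAGAC matches, and the TGFBI window held neither. Of the 24 windows, some of which overlap, 10 held CAGAC (windows of 4 members) and 2 held TGANTCA, and 0 held the palindrome GTCTAGAC. Among all 35116 promoter windows of the same length the shares were 45.3% for CAGAC, 7.71% for TGANTCA and 0.202% for GTCTAGAC (both strands searched). A match describes the letters alone.

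In L3.6, the ligand TGFB1, the receptor TGFBR2 and the transducer SMAD2 had lower transcript levels in cells with K17 than in the knockout. TGFB1 was 1.49-fold, TGFBR2 1.65-fold and SMAD2 1.34-fold lower. The target TGFBI had a few reads in each knockout library and none in the wild type. Levels of SMAD4 were near equal. In bulk RNA, fewer cells of a type and less RNA per cell cannot be told apart.

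TGFB1, a ligand made by epithelial, immune and stromal cells, lies on chromosome 19 (41301587 to 41353911, minus strand, GRCh38). Its level was 150, 158 and 146 CPM in the knockout libraries and 108, 103 and 92.1 CPM in the wild type. The groups did not overlap. The log2 fold change (wild type minus knockout) was -0.58 ± 0.07 (SE), with an adjusted p of 0.00196 in edgeR's quasi-likelihood test after Benjamini-Hochberg adjustment over all genes tested. TGFB2, the second ligand, is at 218346235 to 218444619 on chromosome 1, plus strand. It was measured at 14.1, 12.3 and 16.6 CPM in the knockout and 10.5, 13.0 and 8.46 CPM in the wild type. These groups overlapped, and the difference of -0.43 ± 0.20 missed the threshold (edgeR adjusted p = 0.19).

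TGFBR2, the type II receptor that binds the ligand first, lies on chromosome 3 (30606502 to 30694142, plus strand). It was at 482, 519 and 524 CPM in the knockout and 321, 302 and 300.4 CPM in the wild type. Every wild type library was below every knockout library, with a log2 fold change of -0.72 ± 0.05 (edgeR adjusted p = 0.000194). TGFBR1, the kinase that it activates (chromosome 9, 99104038 to 99154192, plus strand), was at 89.7, 88.9 and 75.8 CPM in the knockout and 95.3, 88.6 and 96.9 CPM in the wild type. The groups overlapped and the log2 difference of 0.14 ± 0.08 did not pass (edgeR adjusted p = 0.272).

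SMAD2, a receptor substrate (chromosome 18, 47808957 to 47931146, minus strand), was at 114, 123 and 114 CPM in the knockout and 96.9, 83.0 and 81.5 CPM in the wild type. The groups were separate and the log2 fold change was -0.42 ± 0.08 (edgeR adjusted p = 0.0136). This call was lost without knockout replicate 2 (adjusted p = 0.0663), knockout replicate 3 (0.0521) or wild type replicate 2 (0.0632). SMAD3, the other substrate (chromosome 15, 67063763 to 67195195, plus strand), was at 29.8, 23.0 and 34.1 CPM in the knockout and 27.5, 34.3 and 32.0 CPM in the wild type. Its groups overlapped, with a log2 difference of 0.11 ± 0.15 (edgeR adjusted p = 0.688).

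SMAD4, the common partner of the receptor substrates, lies on chromosome 18 (51028394 to 51085045, plus strand). Its level was 81.0, 78.3 and 77.5 CPM in the knockout and 74.6, 75.9 and 86.2 CPM in the wild type, from 700 to 1172 counts per L3.6 library. The groups overlapped, the 95% interval of the log2 difference ran from -0.16 to 0.16, and edgeR gave an adjusted p of 0.997. SMAD7, the inhibitor (chromosome 18, 48919853 to 48952052, minus strand), was at 2.47, 2.88 and 3.48 CPM in the knockout and 2.80, 4.01 and 1.44 CPM in the wild type. At 17 to 45 counts per library its groups overlapped and the interval was wide, from -0.99 to 0.77 on the log2 scale.

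TGFBI encodes a secreted matrix protein that TGF-beta induces in many cell types (chromosome 5, 136028895 to 136063818, plus strand). It had 8, 4 and 6 counts in the L3.6 knockout libraries and 0 in each wild type library, and it was left out of the test as too low. The pooled level in the knockout was 0.453 CPM, or 5.55-fold the 0.0816 CPM that 3 counts over the wild type group equal. That ratio takes the 18 knockout counts as exact, so it is not a lower limit of the difference. With no filter on low counts edgeR gave TGFBI an adjusted p of 0.0274.

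**Figure D1:**
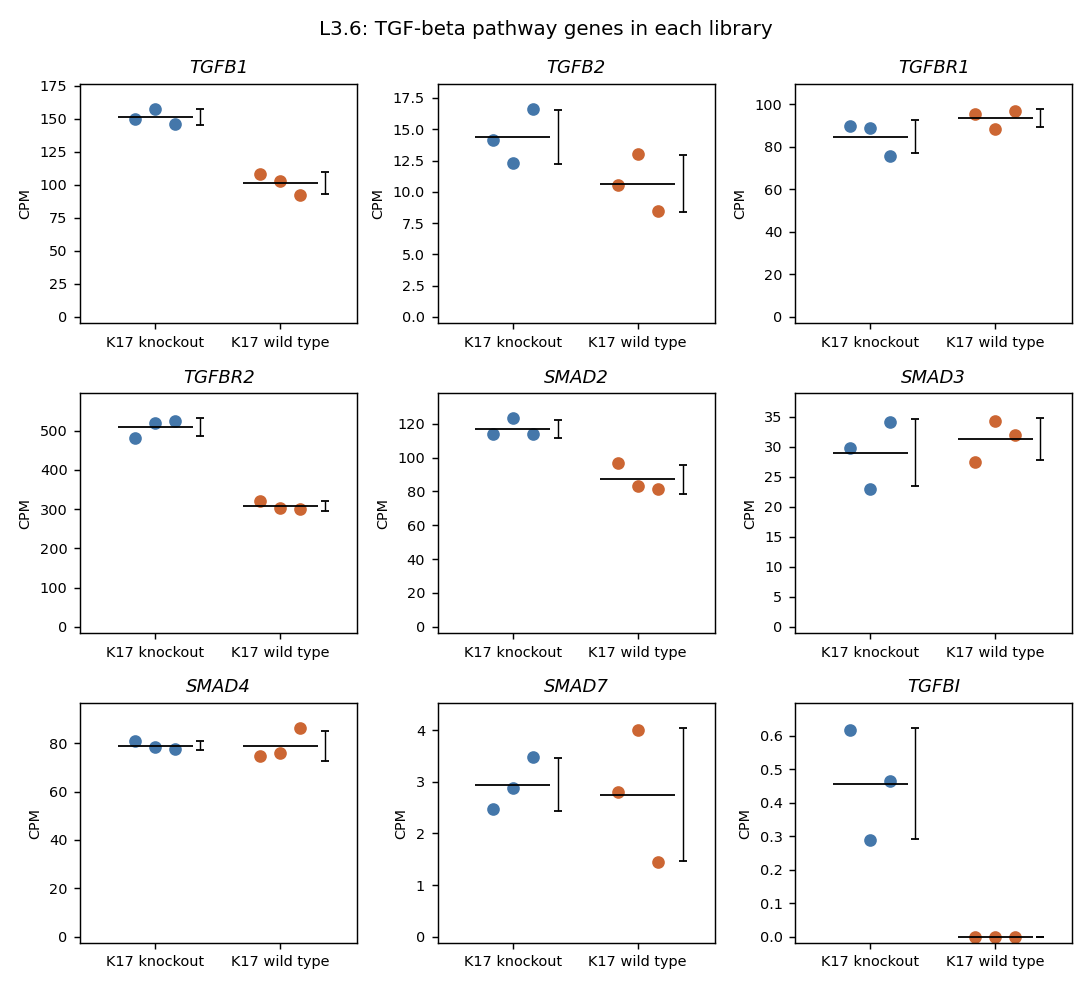
Level of each gene in CPM (vertical axis from about 0) in 3 K17 knockout and 3 wild type L3.6 libraries. Points are libraries, lines are means and bars are ± 1 SD; TGFB1, TGFBR2, SMAD2 and TGFBI are separate between the groups and SMAD4 lies between 74.6 and 86.2 CPM in both.

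Of the 8 members tested in L3.6, 3 passed the threshold and all 3 were lower with K17, against 9.61% of the 13891 genes tested (6.10% lower and 3.51% higher). Over all genes the 488 higher and 847 lower calls became 639 and 706 with upper-quartile scaling, under which the 3 members kept their direction and call. The median log2 fold change was -0.27 over the 8 members and 0.01 over all genes tested. Groups did not overlap for 3 of the 8 tested members, against 33.2% of tested genes. In 1 edgeR fit of all 12 human libraries the log2 fold changes were -0.60 for TGFB1 (adjusted p = 0.307), -0.75 for TGFBR2 (0.133) and -0.45 for SMAD2 (0.374). None of the 3 passed there, all 3 had an unadjusted p under 0.05, and the cause was not tested. Without PANC-1 empty vector replicate 2 that fit called 5 members, all lower with K17, against 2342 of 15758 genes. TGFBI is among the 5 and was in the fit only through its PANC-1 reads, so nothing is read from its call.

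In PANC-1 the clearest difference was in TGFBI, which was higher in every library with K17 than in any with the empty vector. SMAD4, TGFBR1 and TGFBR2 were close in level in the 2 groups once empty vector replicate 2 was set aside. That library was set against the other 2 empty vector libraries member by member. The share of all genes with shifts of like size was not counted. Its log2 difference from their mean was -2.03 in TGFBR1, -1.43 in SMAD3, -1.19 in TGFB2, -1.18 in TGFBR2, -1.16 in SMAD2 and -1.10 in SMAD4. It was 1.01 in TGFB1, 1.07 in TGFBI and 0.08 in SMAD7. Over all genes tested its median difference was 0.03, at 0.35 for genes whose longest transcript is under 2000 bases and -0.53 for those over 6000 bases. Single rows can move much further. CANX, named after its values were seen, had 67 counts there against 21772 and 21411 in empty vector replicates 1 and 3. Each member is therefore given with and without it in PANC-1, and the part of RNA quality in these differences was not tested.

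TGFB1 was at 26.9, 55.2 and 27.8 CPM in the empty vector libraries and 35.1, 33.1 and 31.4 CPM with K17. The second empty vector library lay above all 3 K17 libraries and the other 2 below them. The log2 fold change (K17 minus empty vector) was -0.14 ± 0.31 with all 6 libraries (edgeR adjusted p = 0.88) and 0.28 ± 0.06 without replicate 2 (edgeR adjusted p = 0.0198). The value without replicate 2 lost its call without empty vector replicate 1 (adjusted p = 0.117), empty vector replicate 3 (0.0823) or K17 replicate 2 (0.0529), and with the replicate number as a block (0.0845). In the fits that also leave out replicate 1 or 3, the lone empty vector library is assumed to vary like the K17 libraries. TGFB2 was at 116, 49.8 and 113 CPM with the empty vector and 96.2, 99.4 and 96.9 CPM with K17. Without replicate 2 the groups were separate and TGFB2 fell by 0.23 ± 0.03 on the log2 scale (edgeR adjusted p = 0.0031), while with all 6 libraries the change was 0.07 ± 0.33.

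TGFBR2 was at 213, 94.4 and 214 CPM in the empty vector libraries and 208, 199 and 203 CPM with K17. TGFBR1 was at 117, 28.5 and 117 CPM with the empty vector and 113, 105 and 109 CPM with K17. Neither receptor passed in either fit. With all 6 libraries the log2 differences were 0.23 ± 0.32 for TGFBR2 and 0.32 ± 0.51 for TGFBR1 (edgeR adjusted p = 0.824 and 0.839). Without replicate 2 the groups of both were separate by a small margin, with log2 differences of -0.07 ± 0.03 for TGFBR2 and -0.10 ± 0.04 for TGFBR1 (edgeR adjusted p = 0.12 and 0.111). With upper-quartile scaling both passed, at -0.12 and -0.15 (edgeR adjusted p = 0.0199 and 0.0305).

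SMAD2 was at 247, 113 and 256 CPM with the empty vector and 223, 225 and 223 CPM with K17. Its log2 fold change was 0.13 ± 0.32 with all libraries and -0.17 ± 0.03 without replicate 2, where the groups were separate (edgeR adjusted p = 0.00431). SMAD3 was at 15.1, 6.25 and 19.0 CPM with the empty vector and 20.9, 17.1 and 16.0 CPM with K17, and its groups overlapped with and without replicate 2 (log2 differences of 0.42 ± 0.40 and 0.08 ± 0.14). SMAD4 was at 107, 49.1 and 105 CPM with the empty vector and 108, 102 and 106 CPM with K17. The SMAD4 groups overlapped, and the 95% interval of the log2 difference was -0.47 to 1.03 with all libraries and -0.09 to 0.08 without replicate 2. SMAD7 was at 6.06, 6.80 and 6.76 CPM with the empty vector and 7.22, 7.15 and 7.08 CPM with K17, so that every K17 library was higher. The SMAD7 difference of 0.13 ± 0.14 did not pass (edgeR adjusted p = 0.776), nor did that of 0.15 ± 0.10 without replicate 2 (0.357).

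TGFBI had 3042, 5689 and 2313 counts in the empty vector libraries, or 43.2, 83.5 and 36.3 CPM, and 8305, 8676 and 8464 counts with K17, or 135, 145 and 137 CPM. All K17 libraries were above all empty vector libraries, replicate 2 included. The log2 fold change was 1.35 ± 0.33 with all 6 libraries, with an unadjusted p of 0.00634 and an edgeR adjusted p of 0.199. DESeq2 gave 1.33 with an adjusted p of 0.00968. Without replicate 2 the transcript was 3.48-fold higher with K17 (95% interval of the log2 fold change 1.59 to 2.01, edgeR adjusted p = 9.06e-05), and it kept its call when each of the other 5 libraries was left out in turn, under the same assumption for a lone empty vector library.

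**Figure D2:**
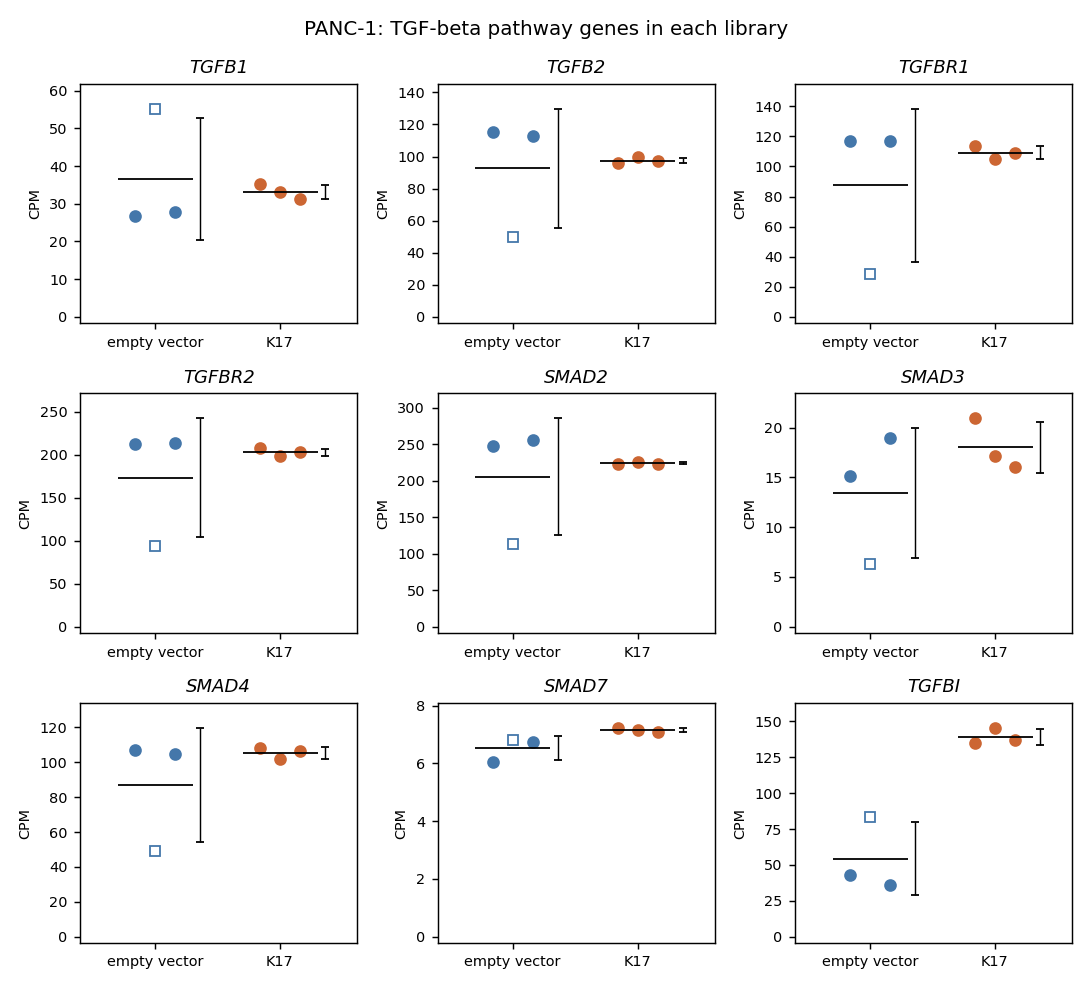
Level of each gene in CPM (vertical axis from about 0) in 3 empty vector and 3 K17 PANC-1 libraries, with lines for means and bars for ± 1 SD over all 3. The open square is empty vector replicate 2, which is low for TGFBR1 (28.5 CPM) and SMAD4 (49.1 CPM) and high for TGFB1 (55.2 CPM); TGFBI is separate between the groups.

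With all 6 PANC-1 libraries edgeR called 0 of the 9 members, against 0.644% of the 16295 genes tested. At an unadjusted p under 0.05 in edgeR there was 1 member, TGFBI, beside 1634 of those 16295 genes. DESeq2 called 1 member and 595 genes, and limma-voom with library quality weights called 3 members and 3040 genes. Groups did not overlap for 2 members, SMAD7 and TGFBI, against 25.6% of tested genes. Without empty vector replicate 2, 4 of the 9 passed, against 20.7% of the 16640 genes tested. TGFB1 and TGFBI rose (11.4% of tested genes rose) and TGFB2 and SMAD2 fell (9.25% fell). Over all genes 1902 rose and 1540 fell, and with upper-quartile scaling 1549 rose and 2193 fell. In that setting the groups did not overlap for 7 members, against 48.3% of genes, and the median log2 fold change was -0.01 over the members and 0.01 over all genes.

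**Figure D3:**
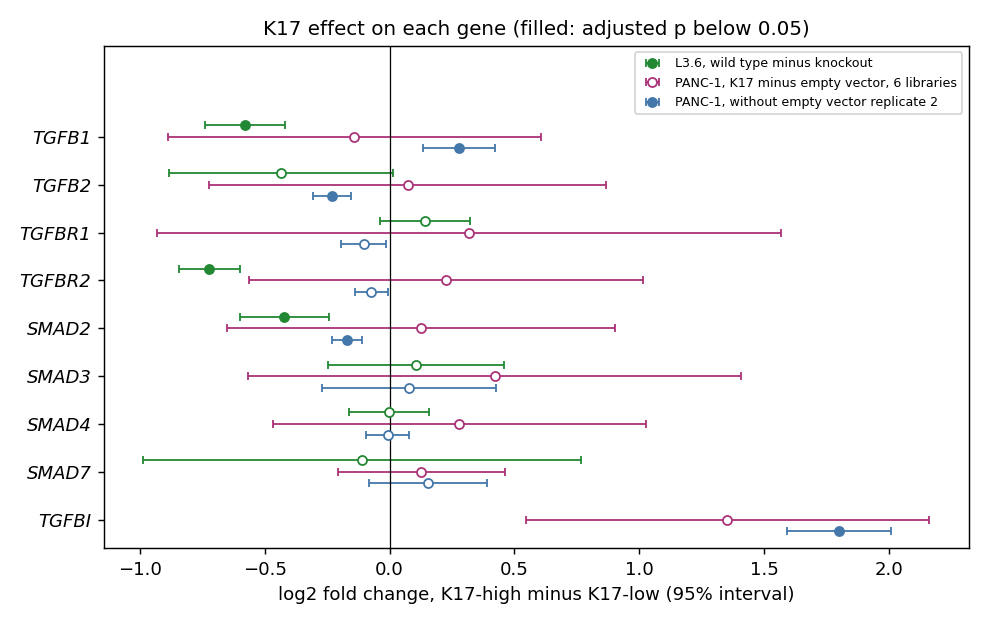
Log2 fold change of each gene with its 95% interval, K17-high minus K17-low, in L3.6, in all 6 PANC-1 libraries and in PANC-1 without empty vector replicate 2. Filled points have an edgeR adjusted p under 0.05; TGFB1 is at -0.58 in L3.6 and 0.28 in PANC-1 without that library, and L3.6 has no point for TGFBI, which was too low to test.

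The difference of the K17 effects (L3.6 minus PANC-1) was tested over the 12 libraries. TGFBI was too low to test in L3.6 and entered this fit only through the PANC-1 libraries. Its values here are a description, and nothing rests on its call. With all 12 libraries its fitted log2 value was -8.09 (edgeR adjusted p = 0.0475), which depends on the prior count, since L3.6 wild type had 0 reads. No other member passed, against 1.54% of the 17583 genes tested. The TGFBI call was lost when any 1 of 8 libraries was left out: L3.6 knockout replicate 1 (adjusted p = 0.0703) or 3 (0.108), wild type replicate 1 (0.0545), 2 (0.0544) or 3 (0.0916), and K17 replicate 1 (0.0576), 2 (0.0577) or 3 (0.0556). Without PANC-1 empty vector replicate 2, TGFB1 (-0.93 ± 0.13, edgeR adjusted p = 0.000977) and TGFBR2 (-0.72 ± 0.11, adjusted p = 0.00114) passed, against 11.5% of 15758 genes, and the value for TGFBI (adjusted p = 0.00038) is again a description. TGFB1 was lower with K17 in L3.6 and higher with K17 in PANC-1 in that setting. SMAD4 gave a difference of -0.07 with an interval from -0.26 to 0.12.

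The 2 lines also differed in level. In the fit of 12 libraries, empty vector replicate 2 included, PANC-1 had about 10.1-fold more TGFB2 than L3.6 and L3.6 2.66-fold more TGFB1. With each library left out in turn, the log2 difference (L3.6 minus PANC-1) ran from -3.44 to -3.14 for TGFB2 and from 1.38 to 1.76 for TGFB1. Per 1000 bases of annotated exon, TGFB1 was at 40.9 ± 1.77 CPM in the L3.6 knockout, 26.9 ± 2.37 in the wild type, 13.5 ± 6.77 with the PANC-1 empty vector and 11.6 ± 0.674 with K17 (SD, n = 3). TGFB2 in the same order was at 2.44 ± 0.374, 1.78 ± 0.385, 20.8 ± 7.6 and 21.3 ± 0.399. TGFB1 was above TGFB2 in every L3.6 library and TGFB2 above TGFB1 in every PANC-1 library except empty vector replicate 2 (21.3 for TGFB1 and 12.1 for TGFB2).

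TGFBR2 had the highest level per length of the 9 in all 4 groups, at 94.7 ± 5.11 and 56.3 ± 2.43 CPM per 1000 bases in the L3.6 knockout and wild type and 42.8 ± 15.3 and 48.7 ± 1.00 in the PANC-1 empty vector and K17 groups. TGFBR1 stood at 10.9 ± 0.956, 11.8 ± 0.544, 14.7 ± 8.21 and 17.9 ± 0.712. SMAD4 was at 5.27 ± 0.0738 and 5.17 ± 0.388 in L3.6 and at 7.67 ± 2.6 and 9.04 ± 0.271 in PANC-1. SMAD4 transcript was thus present in every library of both lines, at 700 or more counts. These counts do not show whether the coding sequence is intact or the protein is made.

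TGFBI differed most between the lines. The PANC-1 empty vector libraries other than replicate 2 held 114-fold more TGFBI than the L3.6 knockout. A row need not hold all reads of its gene, and whether the TGFBI row does so in L3.6 was not tested. Per 1000 bases it was at 0.0512 ± 0.0181 CPM in the L3.6 knockout, 8.32 ± 4.41 with the empty vector and 20.0 ± 0.826 with K17. SMAD7 stood at 0.513 ± 0.0923 and 0.471 ± 0.221 in L3.6 and at 1.53 ± 0.152 and 1.60 ± 0.02 in PANC-1. SMAD2 was at 2.82 ± 0.148, 2.06 ± 0.212, 6.54 ± 2.3 and 6.93 ± 0.0574, over 36366 annotated exon bases, which lowers its level per length beside the other genes. SMAD3 was at 2.79 ± 0.534, 2.95 ± 0.315, 1.70 ± 0.762 and 2.23 ± 0.322.

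**Figure D4:**
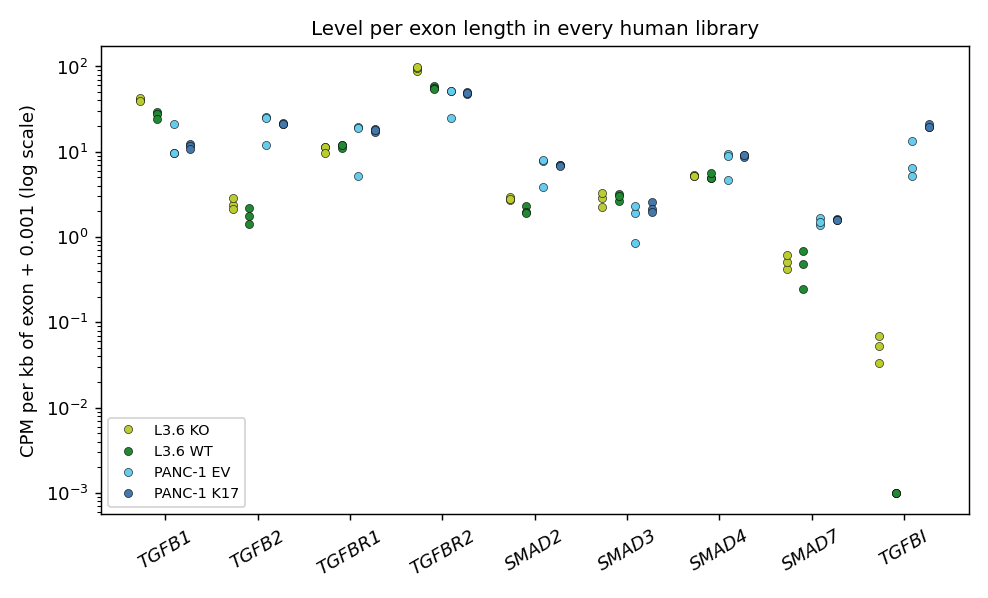
CPM per 1000 bases of annotated exon plus 0.001 (log axis) for each gene in all 12 human libraries, coloured by group (KO knockout, WT wild type, EV empty vector). TGFBR2 lies highest in every group and TGFBI runs from 0 counts in L3.6 wild type to 20.0 CPM per 1000 bases in PANC-1 K17.

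In the edgeR fit of 12 libraries 8 of the 9 members differed between the lines, against 69.0% of genes tested (5776 higher and 6364 lower in L3.6, or 7120 and 5140 with upper-quartile scaling). TGFB1 (log2 L3.6 minus PANC-1 of 1.41 ± 0.19), TGFBR2 (0.68 ± 0.16) and SMAD3 (0.56 ± 0.22) were higher in L3.6. TGFB2 (-3.34 ± 0.20), SMAD2 (-1.48 ± 0.16), SMAD4 (-0.67 ± 0.15, or -0.40 with upper-quartile scaling), SMAD7 (-1.67 ± 0.21) and TGFBI, which was in the fit only through its PANC-1 reads, were higher in PANC-1. TGFBR1 did not pass (-0.52 ± 0.26, edgeR adjusted p = 0.0911). SMAD3 lost its call without L3.6 knockout replicate 3 (adjusted p = 0.123), wild type replicate 2 (0.0567) or wild type replicate 3 (0.0877). Without empty vector replicate 2 all 9 passed, TGFBR1 at -0.62 included, against 79.9% of genes. Line, depth and culture cannot be told apart here, and a row need not hold all reads of its gene: EEF2, an abundant elongation factor gene, had 32 to 53 counts per L3.6 library and 10960 to 27520 per PANC-1 library.

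SMAD2, SMAD4 and SMAD7 all lie on the long arm of chromosome 18, and all 3 were lower in L3.6. Over the 176 tested genes of chromosome 18 that start beyond base 19000000 the median log2 difference was -0.37 (quartiles of -1.47 and 0.48). Over the 35 that start between 46000000 and 53000000 it was -0.49 (quartiles of -1.48 and 0.46). Both sets include these 3 members. Over all genes tested the median was -0.03, with quartiles of -1.02 and 0.98. DNA copy number was not analysed here.

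Around the members, 7 of the 10 tested genes that store and activate the ligand fell with K17 in L3.6. Of the 65 other pathway genes in the data, in 6 lists by role, 56 were tested in L3.6. Of these, 17 fell with K17, 1 rose and 38 did not pass, against 6.10% of all genes tested that fell and 3.51% that rose. The median log2 fold change was -0.10. In the list of ligand storage and activation none rose, and the median was -0.998 against 0.01 over all genes. THBS1, a matrix protein that can release the active ligand, went from 819 ± 74.5 to 201 ± 23.7 CPM between knockout and wild type (log2 fold change -2.03, edgeR adjusted p = 4.38e-05). FURIN, the protease that cleaves the precursor, fell by 0.93 on the log2 scale from 128 ± 1.59 to 67.3 ± 1.79 CPM (adjusted p = 5.83e-05). The latent TGF-beta binding protein LTBP4 (-0.62) and the integrin subunit ITGB6 (-1.78), which with ITGAV activates the latent complex, fell as well. LTBP1 (-1.29), ITGB8 (-1.07) and ITGAV (-0.86) were the other 3 that passed.

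Of the 9 tested co-receptors and related receptors 1 fell, the BMP and activin receptor ACVR1 (-0.42). Of 9 activin and BMP ligands and antagonists 3 fell: the activin antagonist FST (27.3 ± 2.13 to 7.17 ± 2.47 CPM, log2 fold change -1.91, edgeR adjusted p = 0.00196), GDF11 (-0.43) and NBL1 (-0.40). Among the 4 other SMADs edgeR called 0, also at an unadjusted p under 0.05, as did DESeq2 and limma-voom. The inhibitory SMAD6 had a log2 difference of -0.05 and the BMP transducer SMAD5 of 0.41. Of 14 SMAD regulators the phosphatase PPM1A rose (0.44), and the ubiquitin ligase NEDD4L (-0.34) and PMEPA1 (-1.06), an inhibitor that TGF-beta induces, fell. Of 10 tested TGF-beta targets 4 fell: the metalloprotease ADAM19 (-1.39, edgeR adjusted p = 0.001), the transcription factor BHLHE40 (-0.34), the tropomyosin TPM1 (-0.46) and the cell cycle inhibitor CDKN1A (-0.78). Without L3.6 knockout replicate 2, knockout replicate 3 or wild type replicate 2, 9 pathway genes passed in place of 18 in each case.

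In PANC-1 with all 6 libraries edgeR called 0 of the 58 tested pathway genes. At an unadjusted p under 0.05 there were 9, against 1634 of all 16295 genes tested. DESeq2 called 4, against 595 of all genes, and limma-voom with quality weights called 21, against 3040. Without empty vector replicate 2, 15 rose, 7 fell and 36 did not pass, against 11.4% of all genes tested that rose and 9.25% that fell (20.7% called). The median was 0.19 against 0.01 over all genes. Values below are without that library, and none of these genes passed with all 6. LTBP1 rose from 79.2 ± 2.03 to 158 ± 1.76 CPM (log2 fold change 0.996, edgeR adjusted p = 1.01e-05), and its difference with all 6 libraries was 1.21 (adjusted p = 0.102). LTBP3 rose by 0.42 (0.15 with all 6 libraries) and THBS1 fell by 0.34 (-0.01 with all 6). ITGB6, with 4 and 0 counts in the empty vector libraries and 16 to 23 with K17, and LDLRAD4, with 3 and 5 against 11 to 20, are among the 15. Both passed the low-count filter only through the K17 libraries, so nothing is read from their calls.

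Of 10 related receptors ACVR1 (0.51) and ENG (0.21) rose and ACVR2A (-0.61) and BMPR1A (-0.11) fell in that setting. With all 6 libraries these were 0.71 for ACVR1, -0.18 for ENG, -0.34 for ACVR2A and 0.19 for BMPR1A, so that ENG and BMPR1A turned direction. Of 6 ligands and antagonists FSTL3 (0.46), which binds activin, and NOG (0.38), a BMP antagonist, rose, at 0.07 and 0.001 with all 6 libraries. SMAD9 (0.51, or 0.72 with all 6), a BMP transducer, was the 1 of 4 other SMADs that rose. Of 14 SMAD regulators 3 rose and 3 fell, among them the repressor TGIF2 (-0.40), the SMAD anchor ZFYVE9 (-0.20), NEDD4L (0.19) and RNF111 (-0.17). With all 6 libraries TGIF2 was at -0.44 and NEDD4L at 0.36, while ZFYVE9 (0.07) and RNF111 (0.15) turned direction. Of 13 targets TSC22D1 (0.85), TPM1 (0.35) and BHLHE40 (0.14) rose, and ZEB1 (-0.24), a repressor of epithelial genes, fell. With all 6 libraries TSC22D1 was at 0.74, TPM1 at 0.30 and BHLHE40 at 0.21, while ZEB1 (0.14) turned direction. Without empty vector replicate 1 or 3 in addition, 11 pathway genes passed in place of 22, with 1 empty vector library assumed to vary like the K17 libraries.

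Tested as a difference of effects over the 12 libraries, LTBP1 (-2.48, edgeR adjusted p = 0.0013), THBS1 (-1.999, 0.0184), ACVR1 (-1.10, 0.0246) and ADAM19 (-1.72, 0.00317) passed with all 12, chosen here because they passed. Over all 17583 genes tested 270 passed (1.54%). At an unadjusted p under 0.05 there were 22 pathway genes and 2593 genes in all. LTBP1 was lower with K17 in L3.6 and, without empty vector replicate 2, higher with K17 in PANC-1.

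**Figure D5:**
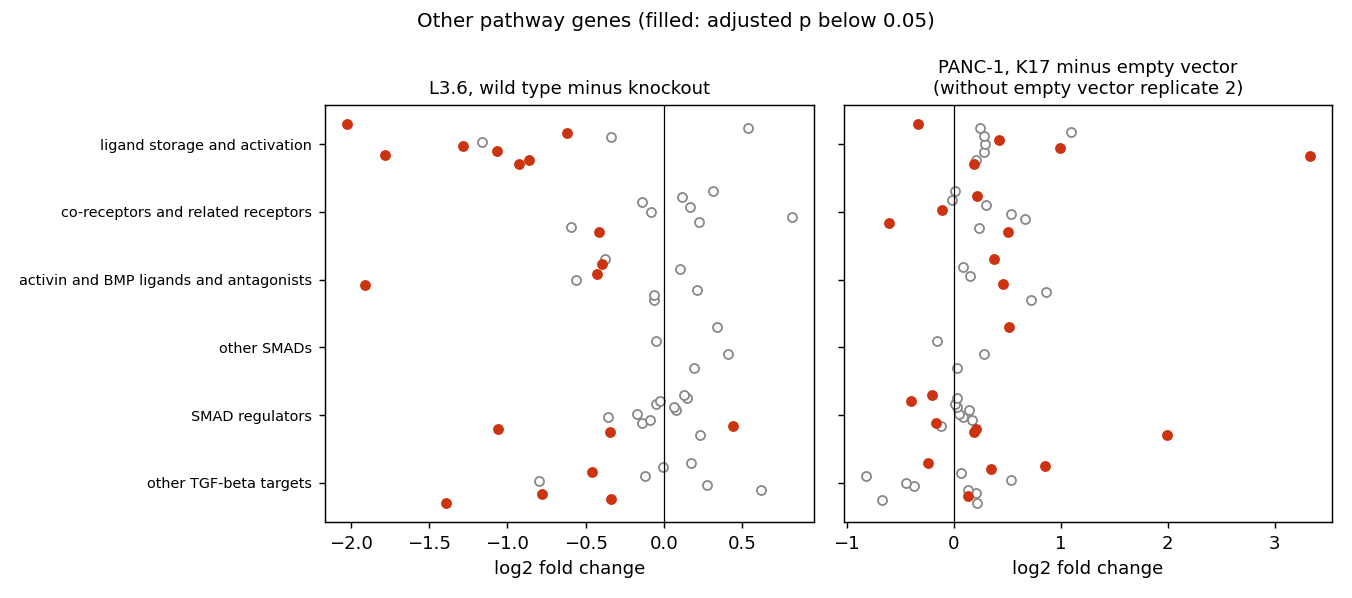
Log2 fold change of each tested gene of the 6 other pathway lists, in L3.6 (wild type minus knockout) and in PANC-1 (K17 minus empty vector, without empty vector replicate 2). Filled points have an edgeR adjusted p under 0.05; in L3.6 the 7 called genes of ligand storage and activation all lie left of 0, from -2.03 to -0.62.

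Markers of other cell types moved with K17 in part. The summed level of 7 fibroblast markers was 104 to 116 CPM in the L3.6 knockout, 134 to 162 in the wild type, 23.8 to 41.8 with the PANC-1 empty vector and 139 to 145 with K17. Of these markers COL1A1, a collagen chain that TGF-beta also induces, was the 1 that rose in each line (0.41 in L3.6 and 2.31 in PANC-1). COL1A1 made up most of the sum in all groups. It was at 99.9 to 111, 128 to 158, 22.0 to 40.3 and 136 to 142 CPM in the same order. LUM had 0 to 2 counts per library. The 7 immune markers summed to 1.70 to 6.11 CPM in L3.6 knockout libraries, 3.64 to 4.46 in the wild type, 35.6 to 51.0 with the PANC-1 empty vector and 35.2 to 42.3 with K17. In these groups 3, 4, 5 and 3 of the 7 had any count, and CD68, a lysosomal protein of macrophages, made up most of the PANC-1 sum, at 33.3 to 49.0 CPM. The 5 endothelial markers summed to 3.48 to 4.03 CPM in the L3.6 knockout and 8.78 to 13.0 in the wild type, where PECAM1 rose by 1.40. Their part in the pathway results was not tested.

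Across 11 libraries, without empty vector replicate 2 and after the mean of each line was subtracted, the log CPM of TGFB1 was most like that of TTC19 (Pearson r = 0.993), VAC14 (0.988) and PEA15 (0.984). TGFBR2 was most like TUBB6 (0.994), AP1G1 (0.993) and LRRC75A (0.993). SMAD2 was most like PRKACA (0.984), NUP188 (0.984) and ANAPC7 (0.983). These are the highest values among the named protein-coding genes that passed the low-count filter, over libraries that share their K17 groups.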

How the data were processed

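Illumina TruSeq RNA libraries of total RNA from 12 human cell line samples were analysed, per the labels' protocols. Each file deposited by the authors gives raw counts per gene as whole numbers. Per the submitters' processing notes, the tools were kallisto 0.46.2, STAR 2.7.3a and bcl2fastq 1.8.4, with GRCh38 and GRCm38. Their roles, the annotation and the strand setting were not given in the sources used here, so overlapping genes are uncertain. The 6 mouse KPC libraries were not used here.

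The 6 libraries of a line entered 1 edgeR 4.0.16 fit (R 4.3.3, TMM, filterByExpr, robust glmQLFit, glmQLFTest). Benjamini-Hochberg adjusted p-values over the genes tested were called under 0.05. Difference of effects and of lines came from 1 fit of 12 libraries. CPM uses TMM-scaled library sizes of each line, and CPM per length those of all 12. Log CPM has a prior count of 2. Floors are 3 counts. Gene coordinates and exon lengths are from GENCODE 29. Limma 3.58.1 (voom with quality weights) and DESeq2 1.42.0 were alternatives, beside RLE and upper-quartile factors, no filter, a replicate block, 1 fit of 4 groups and each library left out. The analyses without PANC-1 empty vector replicate 2 under each alternative were added after seeing the data. The scripts were tested on simulated data.

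The members and lists were chosen with earlier results of these data known. Named genes are the members, up to 4 genes past the threshold with the smallest adjusted p in each other list and line (or the 2 most abundant), the 3 genes most alike in pattern to each called member, and KRT17. Other genes were named after their values were seen. INHBB, BMP2, CCN2, JUNB and SNAI1 were not analysed here. P-values measure only how these samples vary, and that may be technical variation. Depth was 9485257 to 70789559 counts per library.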

Additional observations from a re-analysis of the deposited data

Results flagged for a closer look

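Differences of the K17 effect between the lines, L3.6 minus PANC-1 on the log2 scale, passed a test of the difference itself in edgeR. For TGFBI the difference was -8.09 with all 12 libraries (adjusted p = 0.0475) and -8.65 without PANC-1 empty vector replicate 2 (adjusted p = 0.00038), both dependent on the prior count because L3.6 wild type had 0 reads. TGFBI was too low to test in L3.6 and entered these fits only through the PANC-1 libraries, so its values are a description and nothing rests on them. Without that library the difference was -0.93 for TGFB1 (adjusted p = 0.000977) and -0.72 for TGFBR2 (adjusted p = 0.00114). With all 12 libraries the TGFB1 and TGFBR2 differences were -0.38 and -0.94 and did not pass (adjusted p = 0.679 and 0.204).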

How the results depend on the processing

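Counts of calls moved with the libraries and the test, and the cause was not tested. In L3.6, where 3 members, 1335 genes and 18 pathway genes were called, 1 fit of 4 groups called 0 members (3 at an unadjusted p under 0.05), 204 genes and 6 pathway genes. The same fit without PANC-1 empty vector replicate 2 called 5 members, TGFBI included, and 2342 genes, and voom with quality weights called 2288 genes. With each L3.6 library left out the calls were 2 to 3 members, 574 to 2493 genes and 9 to 19 pathway genes. In PANC-1, with 0 members, 105 genes and 0 pathway genes called, DESeq2 called 1, 595 and 4, voom called 3, 3040 and 21, and 1 fit of 4 groups called 363 genes and 5 pathway genes. Left-out PANC-1 libraries gave 0 to 4 members, 0 to 3442 genes and 0 to 22 pathway genes, with the highest values without empty vector replicate 2. From the 5 libraries without it, leaving out 1 more gave 3 to 4 members, 2053 to 2837 genes and 11 to 16 pathway genes, where a lone empty vector library is assumed to vary like the K17 libraries. For the difference of effects (1 member, 270 genes) DESeq2 called 783 genes, voom called 4 members and 2796 genes, and left-out libraries gave 0 to 3 members and 138 to 1819 genes. Between lines left-out libraries gave 7 to 9 members and 10873 to 12598 genes.

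Upper-quartile factors moved the split of higher against lower calls from 488 and 847 to 639 and 706 in L3.6, from 1902 and 1540 to 1549 and 2193 in PANC-1 without replicate 2, and from 5776 and 6364 to 7120 and 5140 between lines, where the median of all genes became 0.25. For the difference of effects that median became 0.15.

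Some signs turned. L3.6 SMAD4 (-0.0005) became 0.0012 with RLE factors, 0.0011 with DESeq2, 0.0034 with voom and 0.052 with upper-quartile factors, and ran from -0.068 to 0.032 with libraries left out. In the same way L3.6 SMAD3 ran from -0.043 to 0.25 and SMAD7 from -0.46 to 0.20. In PANC-1, TGFB2 became -0.0016 with upper-quartile factors. Under voom TGFB1 was 0.28, TGFB2 -0.22, TGFBR1 -0.092, TGFBR2 -0.064, SMAD2 -0.15 and SMAD4 -0.0035. With PANC-1 libraries left out TGFB1 ran from -0.32 to 0.28, TGFB2 from -0.23 to 0.26, TGFBR1 from -0.10 to 0.58, TGFBR2 from -0.073 to 0.40, SMAD2 from -0.17 to 0.31 and SMAD4 from -0.0075 to 0.46. Without empty vector replicate 2, SMAD3 ran from -0.076 to 0.24 and SMAD4 from -0.033 to 0.017. The difference of effects under voom was 0.23 for TGFBR1 and 0.032 for SMAD3, and with libraries left out it ran from -0.50 to 0.17 for TGFBR1 and from -0.63 to 0.10 for SMAD7.

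Libraries of the same replicate number correlated at -0.12, -0.04 and 0.02 in L3.6 and 0.05, 0.09 and 0.02 in PANC-1. Those of different numbers correlated at -0.09 to 0.12 in L3.6 and -0.08 to 0.05 in PANC-1. With 3 libraries a group, each set against its group mean, these values cannot show whether the samples were paired. With the replicate block 665 genes were called in L3.6, 0 in PANC-1 (1262 at an unadjusted p under 0.05) and 151 for the difference of effects, with 0 members there (2 unadjusted). Without empty vector replicate 2 the block gave 2252 genes and 11 pathway genes, and SMAD4 at 0.017. Depth limits SMAD7 and TGFBI in L3.6 most, at 0 to 45 counts per library.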
